A study of Mus musculus with 19 samples.

Results

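Of 23284 mouse genes, 70 were low in mouse embryonic fibroblasts (MEFs), abundant in prostate tissue and past the same floor in every one of 5 iEpt+NAF grafts grown from such fibroblasts. The members were selected on the deposited log2 values: at least 9 in each of the 5 grafts and in each of 6 prostate samples, and a mean at or below 5 over 6 MEF samples. Keratins were left out, which removed 1 gene. The values that chose the members are described here without a test against MEFs. The deposited values are log2 read counts normalized between samples, so that 1 unit is about a doubling, and the folds given are 2 to the power of a difference. How the log2 scale was made is not stated, and values under about 11 carry added scatter, so folds are approximate. A value of 9 corresponded to an estimated 426 to 852 reads in the grafts and prostate samples. A level is such a log2 value, a difference is a difference between them, and gene length is not taken into account, so levels are compared between samples and not between genes.

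The experiment asked whether fibroblasts can be turned into prostate tissue. The MEFs were C57BL/6 cells from embryos (E13.5) that carried 1 Nkx3-1tm2(LacZ)Mms allele, a LacZ insertion in the gene of a prostate regulator. The iEpt (induced epithelial) cells were obtained by retroviral OCT4, SOX2, KLF4 and c-MYC in such fibroblasts under epithelial culture, and NAF stands for the further lentiviral expression of prostate regulators, Nkx3.1 and Foxa1 among them. Both kinds of cell were combined with rat urogenital mesenchyme and grown for 6 weeks under the kidney capsule of nude mice, and the prostate samples were whole C57BL/6 tissue with a label of 6 weeks. The sample labels call all 7 grafts by the same words. The grafts FS002, FS003 and FS005 and the pair FS007 and FS008 are iEpt+NAF by the study's supplementary list, and FS022 and FS023 are taken as the 2 iEpt only grafts because that list does not hold them. Whole grafts were sequenced, so rat mesenchyme, host cells and kidney may be present beside the epithelium, and in such bulk tissue fewer cells of a type and less RNA per cell cannot be told apart.

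Simple epithelia are held together by E-cadherin junctions, claudin-based tight junctions and desmosomes, and they sort proteins to an apical and a basolateral surface. Fibroblasts lack this programme. Its known regulators include the transcription factors GRHL2, EHF and ELF3 and the splicing factor ESRP1, and repressors such as ZEB1 and SNAI1 keep it off in mesenchymal cells by binding E-boxes in promoters. By role, 15 members belong to cell junctions and adhesion, 6 to transcription and splicing, 4 to membrane serine proteases and their inhibitors, 12 to vesicle traffic and the cytoskeleton, 9 to signalling, 6 to transport and the apical membrane, 2 to mucosal secretion, 8 to metabolism and 2 to antigen presentation, and 6 were given no role. The label of epithelial genes held for most of them, but Cd74 and H2-Aa are antigen-presentation genes of immune cells as well. Likewise, several metabolic genes such as Acss1 and Selenbp1 are not restricted to epithelium.

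All 70 members had a position in the GENCODE M1 annotation of mm9, on 18 chromosomes, with at most 9 on 1 of them (chromosome 4). In 4 neighbouring pairs the members lay within 300 kb of each other. Cldn4 (chr5:135420996-135422804) and Cldn3 (chr5:135462084-135463342) were 39.3 kb apart, AA986860 and Pigr 82.1 kb apart on chromosome 1, Tmprss2 and Ripk4 130.7 kb apart on chromosome 16, and Cgn and Selenbp1 146.6 kb apart on chromosome 3.

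Promoter sequence played no part in the selection. Promoter windows from RefSeq (GRCm38.p6) were found by symbol for 47 of the 70 members and for 15701 of the 23284 genes, and the 250 bases before the start were searched on both strands for 7 short motifs. An E-box of the letters CACCTG, or CAGGTG on the other strand, was present in 22 of 47 members (46.8%), against 19.0% of all 15701 genes and 16.8% of 3481 comparison genes that also reached 9 in all 11 graft and prostate samples but had a MEF mean above 5. At least 2 such E-boxes in 1 window were present in 9 members (19.1%), against 2.39% of all genes and 1.58% of the comparison genes. With only the first window of each gene, 19 of 47 members, 2566 of 15701 genes and 470 of 3481 comparison genes held one. The median GC content of the windows was 58.4% in members, 56.0% in all genes and 61.6% in the comparison genes. These are counts of letters, with no test and no measurement of binding.

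Of the other motifs, the GC box GGGCGG was present in 53.2% of members, 47.0% of all genes and 71.2% of the comparison genes. The ETS-type site AGGAAGT, of the kind ELF and EHF factors bind, was present in 8.51%, 8.59% and 7.58%. For the AP-1 site TGANTCA these shares were 6.38%, 7.36% and 4.57%, and for the TATA box TATAAA 4.26%, 13.3% and 6.58%. The grainyhead site AACCGGTT and the FOX site TGTTTAC were found in 0 of 47 members, and in 0.159% and 3.10% of all genes.

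**Figure D1:**
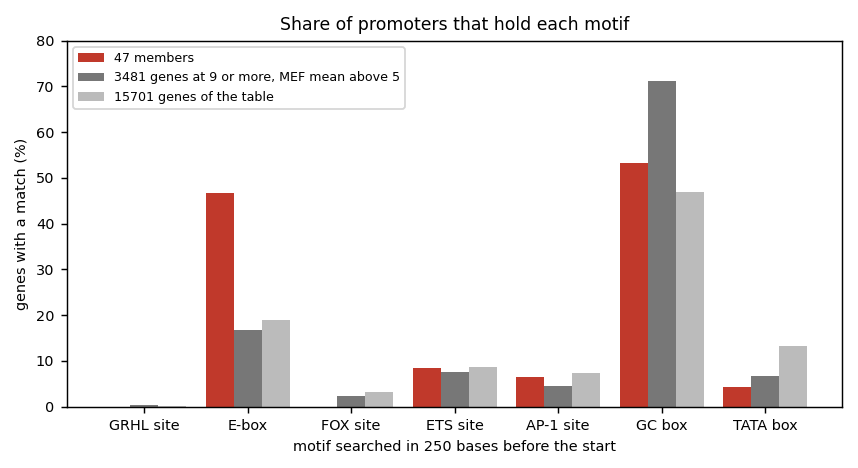
Percent of genes (vertical axis) whose 250 bases before the start hold each of 7 motifs on either strand, for 47 members (red), 3481 comparison genes (dark grey) and 15701 genes of the table (light grey). The E-box stands at 46.8% in members against 16.8% and 19.0%, while the bars of the ETS site lie between 7.58% and 8.59%.

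Of the 9 members with at least 2 E-boxes in 1 window, the 6 with a role in adhesion, tight junctions or polarized traffic are shown, chosen after the motifs had been counted, to let the spacing of the E-boxes be seen. Each runs 5′ to 3′ on the strand of the gene and ends at the base before its start, with the E-boxes in capitals (coordinates on GRCm38.p6).
Ap1m2, chr9:21312334-21312583, minus strand: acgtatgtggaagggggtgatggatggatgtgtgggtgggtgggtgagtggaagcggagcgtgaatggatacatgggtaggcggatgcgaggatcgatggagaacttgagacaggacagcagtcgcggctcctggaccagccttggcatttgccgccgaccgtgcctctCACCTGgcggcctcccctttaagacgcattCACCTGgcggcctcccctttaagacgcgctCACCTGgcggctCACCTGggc
Lsr, chr7:30973470-30973719, minus strand: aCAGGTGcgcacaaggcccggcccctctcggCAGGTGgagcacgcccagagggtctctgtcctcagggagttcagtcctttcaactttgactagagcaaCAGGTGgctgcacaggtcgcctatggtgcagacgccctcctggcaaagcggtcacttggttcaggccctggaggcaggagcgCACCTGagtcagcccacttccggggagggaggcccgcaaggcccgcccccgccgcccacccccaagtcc
Cldn7, chr11:69965171-69965420, plus strand: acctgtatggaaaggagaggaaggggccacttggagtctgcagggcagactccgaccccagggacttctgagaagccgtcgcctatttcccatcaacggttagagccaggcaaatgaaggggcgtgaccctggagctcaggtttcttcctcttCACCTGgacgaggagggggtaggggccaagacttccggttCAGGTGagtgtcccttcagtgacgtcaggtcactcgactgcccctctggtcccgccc
Ocln, chr13:100552499-100552748, minus strand: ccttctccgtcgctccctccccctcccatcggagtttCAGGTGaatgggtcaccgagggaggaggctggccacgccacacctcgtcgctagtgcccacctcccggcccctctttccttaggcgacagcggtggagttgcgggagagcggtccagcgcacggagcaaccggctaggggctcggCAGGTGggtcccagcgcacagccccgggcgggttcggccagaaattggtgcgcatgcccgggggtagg
Rab25, chr3:88548280-88548529, minus strand: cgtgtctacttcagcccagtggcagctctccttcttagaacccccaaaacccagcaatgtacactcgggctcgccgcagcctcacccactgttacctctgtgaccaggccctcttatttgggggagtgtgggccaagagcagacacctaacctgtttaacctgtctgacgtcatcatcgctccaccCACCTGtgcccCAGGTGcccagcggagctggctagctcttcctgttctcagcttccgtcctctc
Epcam, chr17:87635729-87635978, plus strand: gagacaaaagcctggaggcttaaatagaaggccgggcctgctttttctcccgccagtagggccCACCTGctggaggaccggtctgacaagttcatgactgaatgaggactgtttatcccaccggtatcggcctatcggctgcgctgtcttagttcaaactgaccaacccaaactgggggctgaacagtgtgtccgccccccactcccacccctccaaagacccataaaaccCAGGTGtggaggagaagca
The Ap1m2 and Lsr windows hold 4 E-boxes each. In Ap1m2, which encodes the clathrin adaptor subunit of basolateral sorting in epithelia, they start 81, 51, 21 and 9 bases before the start. In Lsr, an angulin of tricellular tight junctions, they start 249, 219, 151 and 69 bases before it. Cldn7, Ocln, Rab25 and Epcam hold 2 each, those of Rab25 lying 64 and 53 bases before the start. The Cldn7 and Ocln windows are the second of 2 for their gene, and the first holds no E-box.

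Depth and sample make-up were examined before the results. The reads counted on genes were estimated at 16767292 to 26152345 in the 17 samples of the first table, and at 6629665 in FS022 and 9662060 in FS023. The latter were normalized in a table of their own, so no test was run across the tables. Lists of marker genes (log2 of the summed linear values) showed nephron transcripts in every graft, from 11.9 to 17.6 against 10.1 to 10.8 in prostate, and 17 of 18 nephron markers passed as higher in grafts. In all, 6 of these markers, Umod among them, were at or below the value of 3 reads in every prostate sample. The nephron sum was 16.6, 17.6 and 17.5 in FS002, FS005 and FS008, and 11.9 in FS003 and 13.1 in FS007. The MEF sums of 9.69 to 13.1 follow Aqp1 (8.50 to 13.03), while Kap was at most 3.54 in MEFs and at 9.77 and 12.34 in FS003 and FS007. Prostate secretion genes summed to 12.5 to 13.8 in grafts and 20.5 to 21.5 in prostate, intestinal or mucous genes to 10.2 to 14.9 against 5.53 to 6.58, squamous genes to 7.24 to 13.3 against 8.55 to 9.34, and immune genes to 12.5 to 14.1 against 10.5 to 12.4. Among MEFs, the prostate secretion sum was 12.02 in FS015, 10.4 to 10.8 in FS016 to FS018, and 7.55 and 7.39 in FS019 and FS020. The immune sum was 12.68 in FS015 and 12.50 in FS020, and 6.48 to 7.40 in the other MEFs.

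Between the conditions of the rule, 227 genes without keratins reached 9 in all 6 prostate samples with a MEF mean at or below 5. Of these, 70 (30.8%) reached 9 in all 5 grafts, 31 (13.7%) in 4 grafts, 29 (12.8%) in 3, 23 (10.1%) in 2, 18 (7.93%) in 1 and 56 (24.7%) in none. Each graft by itself had 118 to 136 of the 227, with the highest count in FS003 and the lowest in FS008. The 3 members closest above the floor were Prodh (9.03 in FS003), AA986860 (9.03 in FS014) and Fut9 (9.04 in FS003), and the closest genes below it were the desmosomal plaque gene Evpl (8.99 in FS011), Fcgbp (8.98 in FS008) and Tmem184a (8.97 in FS002). At the MEF limit, Prom1 (mean 4.95), Kcnk1 (4.87) and Mtap7 (4.78) lay just inside, and the desmosomal cadherin gene Dsc2 (5.06), Cyb561 (5.16) and Podxl (5.18) just outside. With a floor of 8 or 10 in place of 9 the number of members was 143 or 27.

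In MEFs the median level of the 70 members was 2.38 in FS019 to 4.18 in FS015, in a table where 3 reads correspond to 1.68 to 2.34. FS015 was the highest MEF sample for 47 of the 70, and 25 members had at least 1 MEF sample above 5, with Kcnk1 reaching 6.80. No member was at or below 3 reads in all 6 MEF samples. FS015 also had the highest prostate secretion sum of the MEFs. The next highest member median, 3.54, was that of FS020, which had the lowest prostate secretion sum. FS015 and FS020 had the highest immune sums of the MEFs. The part of other tissues in the members' MEF levels was not tested. When every MEF sample had to be at or below 5, 45 members were left, and when the mean of FS019 and FS020 alone was used, the rule gave 67 genes.

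**Figure D2:**
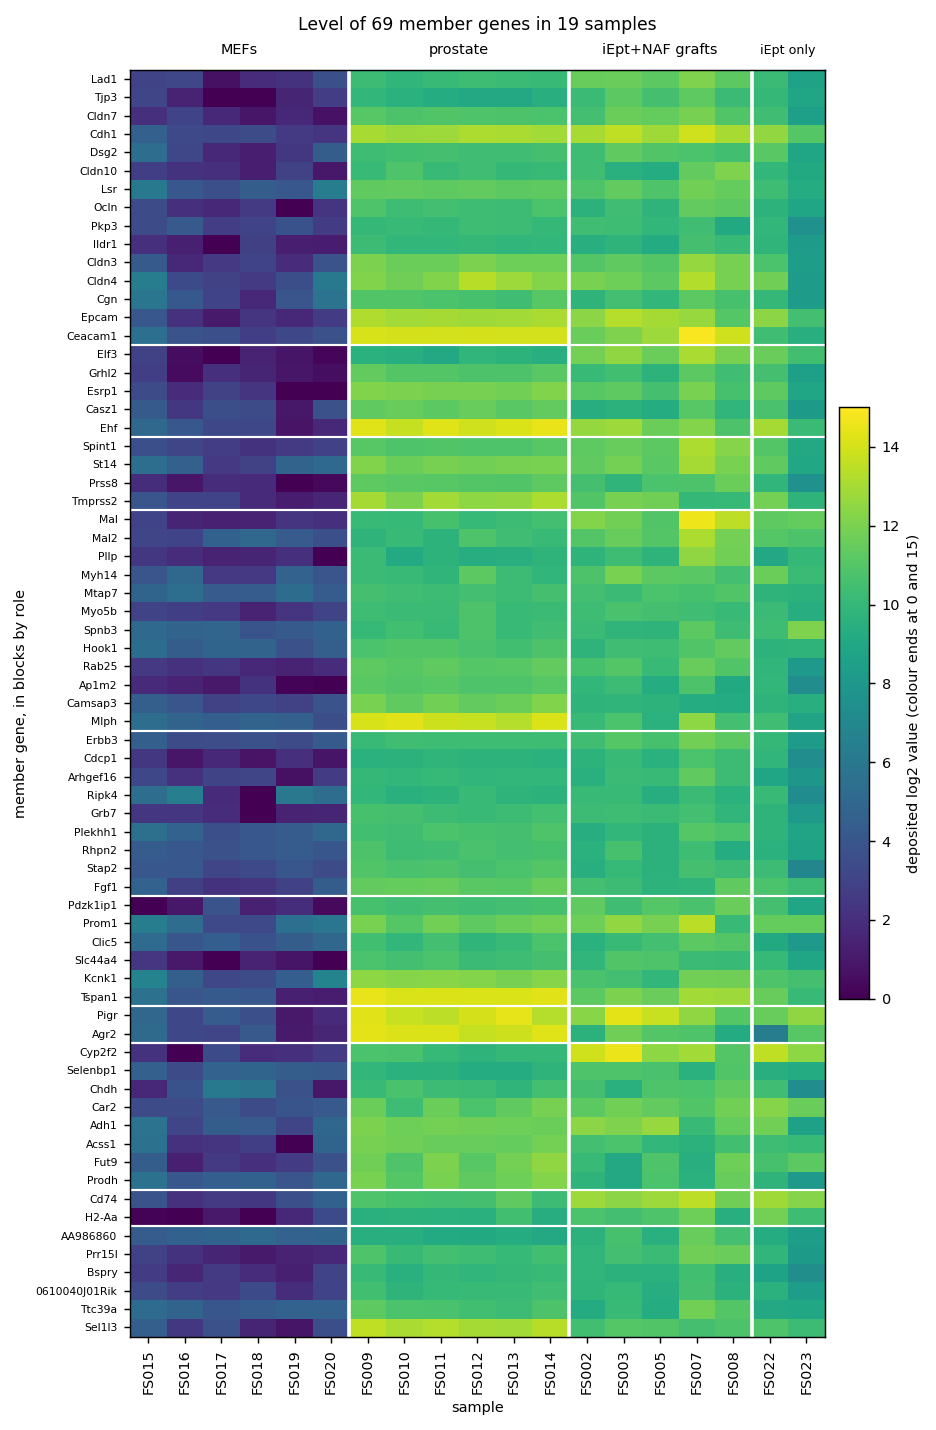
Deposited log2 value (colour, from 0 to 15) of 69 of the 70 members (rows, in blocks by role) in 6 MEF, 6 prostate, 5 iEpt+NAF and 2 iEpt only graft samples (columns). Members are at 9 or more in prostate and iEpt+NAF grafts by the rule, at medians of 2.38 to 4.18 in MEFs, and at medians of 10.4 in FS022 and 8.88 in FS023.

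The levels in grafts were then set against those in prostate. Of the 70 members, 10 passed as higher in grafts and 14 as lower (limma on all 16353 genes fitted, adjusted p under 0.05 and a difference of at least 1), and 46 passed neither way. Of all genes fitted, 23.0% passed as higher and 10.3% as lower, and of the 4622 comparison genes at 9 or more with a MEF mean above 5, 3.03% and 8.91%. Since the rule sets the same floor in both groups, a loss that ends below 9 in any graft and a gain from below 9 in any prostate sample could not enter, and these counts are to be read with that truncation. The median difference over members was -0.08, with quartiles of -0.77 and 0.38, and it was 0.11 over all genes fitted and -0.13 over the comparison genes. The difference was within 1 unit for 45 members and within 0.5 for 36, with 30 differences above 0 and 40 below. In 10 members all grafts lay above all prostate samples and in 12 all lay below (19.8% and 17.3% of all genes fitted). Of the 46 that did not pass, 9 had an adjusted p under 0.05 but differed by less than 1 unit.

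**Figure D3:**
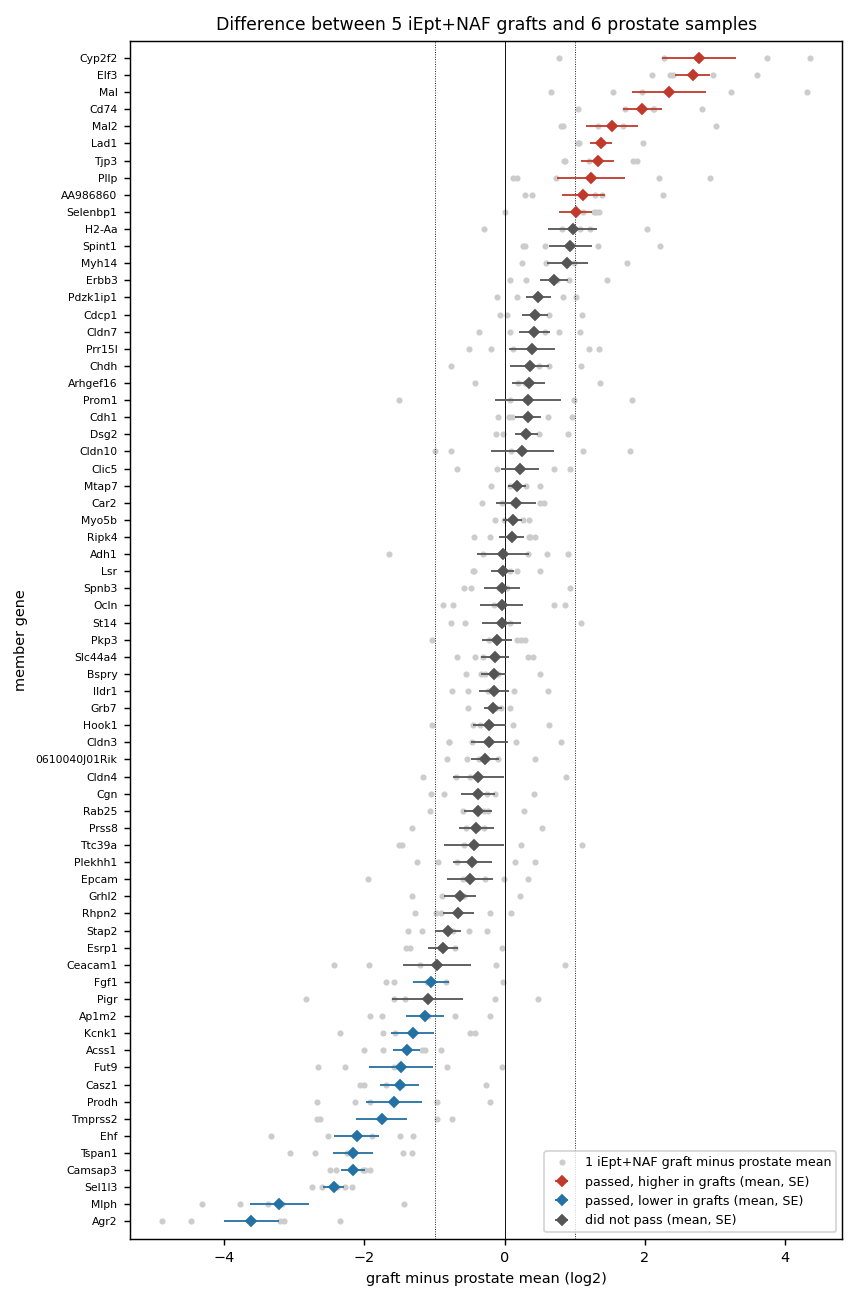
Difference between the mean of 5 iEpt+NAF grafts and the mean of 6 prostate samples (horizontal axis, log2) for 69 of the 70 members (rows), with the limma standard error, in red for the 10 that passed as higher, blue for the 14 that passed as lower and dark grey for the rest; light grey points are single grafts minus the prostate mean. The differences run from -3.61 for Agr2 to 2.77 for Cyp2f2, and dotted lines mark 1 unit.

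Junction genes were the largest group, and 13 of its 15 members passed neither way. Counts by role or list, here and below, stand beside 23.0% higher and 10.3% lower over all genes fitted. Over the comparison genes these shares were 3.03% and 8.91%. Most genes of both sets thus passed neither way too, so this count is not particular to junction genes. Cdh1, which encodes E-cadherin, had levels of 13.07, 13.58, 12.86, 13.92 and 13.03 in the 5 grafts (in ascending order of sample name, as throughout) and of 12.76 to 13.17 in prostate. Its groups overlapped, with a difference of 0.33 (SE 0.18, adjusted p = 0.146). Epcam, the epithelial cell adhesion molecule shown above for its promoter, had graft levels of 12.40, 13.32, 12.97, 12.71 and 11.03 against 12.84 to 13.20 in prostate. FS008 was the lowest graft, and the difference was -0.50 (SE 0.33, adjusted p = 0.211). The adhesion molecule Ceacam1 had the widest range among junction genes, at 11.59, 12.08, 12.81, 14.88 and 13.89 in grafts against 13.95 to 14.11 in prostate (difference -0.97, SE 0.49). Its difference passed as lower when FS007 was left out (-1.42, adjusted p = 0.00551).

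The tight-junction members lay on both sides of their prostate levels, and 1 of 8 passed. The claudin genes Cldn3, Cldn4, Cldn7 and Cldn10 differed from prostate by -0.22, -0.38, 0.42 and 0.25, and none passed (adjusted p from 0.118 to 0.658). Cldn4 ranged from 11.23 to 13.27 in grafts and from 11.75 to 13.40 in prostate. Cldn7 was at 10.51, 11.65, 11.46, 11.95 and 10.95 in grafts against 10.77 to 11.10 in prostate. Ocln (occludin) and the angulin genes Lsr and Ildr1 differed by -0.04, -0.03 and -0.16. Lsr was at 10.85, 11.38, 10.87, 11.80 and 11.48 in grafts and at 11.24 to 11.38 in prostate, and Ocln at 9.64 to 11.38 and 10.31 to 10.85. The plaque gene Cgn (cingulin) was at 9.74 to 11.20 in grafts and 10.38 to 11.11 in prostate. Tjp3, which encodes the scaffold ZO-3, was higher in grafts, at 10.25, 11.23, 10.59, 11.29 and 10.24 against 9.07 to 9.95 in prostate, without overlap (difference 1.32, SE 0.23, adjusted p = 0.000641). Lad1, which encodes the basement-membrane anchor protein ladinin, was higher too, at 11.20 to 12.13 against 9.89 to 10.32 (difference 1.37, SE 0.16, adjusted p = 3.29e-05). The desmosomal members Pkp3 and Dsg2 differed by -0.11 and 0.31 and did not pass.

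The fixed lists of junction genes show which genes missed the rule. Of 19 tight-junction genes, 8 were members, and 2 of the 19 passed as higher and 2 as lower. The lower ones were Cldn8 (difference -3.99) and Marveld2 (-1.32), neither of them a member, and the larger rise was that of Cldn6 (7.63). Of 13 desmosome genes, only Pkp3 and Dsg2 were members, and 7 of the 13 passed as higher. These 7 hold the plaque genes Pkp1 (2.96), Ppl (2.00) and Evpl (1.49) and the cadherin genes Dsg3 (8.79) and Dsc3 (3.38), most of which are known from stratified epithelia. Of 12 adhesion genes, 4 were members and 4 others passed as higher, Itgb4 (1.16) and Itgb6 (3.43) among them. Of 14 polarity genes in the table, none was a member and none passed as higher or lower. All except Crb3 and Prkcz had a MEF mean above 5, for example Pard3 (10.34) and Scrib (10.41). The MEF limit barred these whatever their graft level. The lowest graft values of Crb3 and Prkcz were 8.64 and 8.82, under the floor of 9.

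Transcription and splicing regulators moved in both directions. Elf3, an ETS factor of surface epithelia, was at 11.88, 12.49, 11.62, 13.11 and 11.91 in grafts and at 9.08 to 9.89 in prostate. All grafts lay above all prostate samples, and the difference of 2.68 is a 6.42-fold higher level (SE 0.25, adjusted p = 7.31e-06). Ehf, its relative in the same ETS subfamily, went the other way, at 12.64, 12.83, 11.61, 12.24 and 10.80 in grafts against 13.69 to 14.49 in prostate, again without overlap (difference -2.11, SE 0.32, adjusted p = 0.000244). The zinc-finger gene Casz1 was lower in grafts, at 9.29 to 11.10 against 11.19 to 11.5027 (difference -1.5001, SE 0.27, adjusted p = 0.000767).

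Grhl2, the grainyhead factor of epithelial junction genes, was at 10.14, 10.45, 9.70, 11.25 and 10.43 in grafts and at 10.78 to 11.41 in prostate. Its difference of -0.64 did not reach 1 unit (SE 0.23, adjusted p = 0.0342). The splicing factor gene Esrp1 was at 10.60 to 11.97 in grafts against 11.80 to 12.19 (difference -0.88, SE 0.22, adjusted p = 0.00471), and it passed as lower when FS007 was left out (-1.10). Of the 28 transcription factors in the fixed list, 4 were members, and 6 of the 28 passed as higher and 10 as lower. The prostate factors Hoxb13 (-8.34), Gata3 (-4.30) and Foxa1 (-2.48), none of them members, were among the lower ones, and Hnf4a (10.89), a factor of liver, gut and kidney tubule, among the higher.

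Among the membrane serine proteases, Tmprss2, an androgen-responsive prostate protease, was lower in grafts, at 10.93, 11.94, 11.73, 10.01 and 10.05 against 12.04 to 13.14 (difference -1.76, SE 0.37, adjusted p = 0.00188). FS003 was the highest graft and still lay below all prostate samples. St14 (matriptase) and Prss8 (prostasin), which act together at epithelial surfaces, differed by -0.05 and -0.40 and did not pass. Their inhibitor Spint1 was at 11.25, 11.54, 11.21, 13.18 and 12.29 in grafts and at 10.86 to 11.11 in prostate, so all grafts lay above, with a difference of 0.93 that fell short of 1 unit (SE 0.31, adjusted p = 0.023). It passed when FS002, FS003 or FS005 was left out, with differences of 1.02 to 1.10. Of the 11 genes in this list, 5 passed as higher and 1, Tmprss2, as lower.

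Vesicle traffic and cytoskeleton held 3 higher and 3 lower members of 12. The raft proteolipid gene Mal, known from apical sorting, was at 12.23, 11.82, 10.93, 14.59 and 13.5041 in grafts against 10.05 to 10.62 in prostate (difference 2.34, SE 0.53, adjusted p = 0.00299). Its relative Mal2, which acts in transcytosis, was at 10.96 to 13.17 against 9.68 to 10.86 (difference 1.53, SE 0.37, adjusted p = 0.0046). Another proteolipid gene, Pllp, was at 9.77, 10.34, 9.73, 12.53 and 11.80 against 9.16 to 10.21, with a difference of 1.23 at the edge of the threshold (SE 0.48, adjusted p = 0.0472). FS007 was the highest graft for all of these. Pllp no longer passed when FS007 (0.80, adjusted p = 0.0874), FS008 (0.99, adjusted p = 0.105) or any of 5 prostate samples was left out, and Mal2 fell just under 1 unit (0.98) without FS007 and FS008 together.

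The lower members of this group were Mlph, Camsap3 and Ap1m2. Mlph, which encodes the Rab27 effector melanophilin, was at 10.13, 10.73, 9.59, 12.48 and 10.54 in grafts and at 13.33 to 14.33 in prostate, a 9.30-fold lower level (difference -3.22, SE 0.42, adjusted p = 7.75e-05). Camsap3, whose product anchors microtubule minus ends, was at 9.23 to 9.79 against 11.34 to 12.14 (difference -2.17, SE 0.17, adjusted p = 2.22e-06). Ap1m2, whose promoter has 4 E-boxes, was at 9.93, 10.31, 9.27, 10.81 and 9.09 against 10.86 to 11.17 (difference -1.14, SE 0.27, adjusted p = 0.00379), and it fell under 1 unit when FS005 (-0.98) or FS008 (-0.94) was left out. The recycling GTPase gene Rab25 was at 10.62, 10.97, 10.15, 11.49 and 10.91 in grafts and 11.04 to 11.41 in prostate and did not pass. Myo5b, the motor of recycling endosomes, was the steadiest member among grafts, at 10.19 to 10.66 (SD 0.19, n = 5), while prostate sample FS012 stood apart at 10.81. Mtap7, Hook1 and Spnb3 differed by 0.18, -0.22 and -0.04, and the non-muscle myosin gene Myh14 by 0.89 (adjusted p = 0.0214), the latter passing in 4 of the alternatives tried, for example without FS008 (1.06).

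Of the 9 signalling members, 8 did not pass. Erbb3, a receptor of the EGFR family, was at 10.40, 11.06, 10.62, 11.79 and 11.25 in grafts against 10.15 to 10.37 in prostate, where FS009 stood apart as the lowest, so that all grafts lay above (difference 0.70, SE 0.21, adjusted p = 0.0127). Grb7, an adaptor of such receptors, had an SD of only 0.22 over grafts and a difference of -0.17. Stap2, another adaptor, had all grafts below prostate, at 9.42 to 10.55 against 10.56 to 11.01 (difference -0.81, SE 0.19, adjusted p = 0.00348). Fgf1, a fibroblast growth factor, was the 1 member that passed as lower, at 10.53, 10.26, 9.67, 9.79 and 11.34 against 11.11 to 11.56 (difference -1.05, SE 0.26, adjusted p = 0.00478). Its groups overlapped through FS008, and it fell under 1 unit without FS005 (-0.89) or FS007 (-0.92). Ripk4, a kinase of keratinocyte differentiation, and Cdcp1, Arhgef16, Plekhh1 and Rhpn2 differed by 0.10, 0.43, 0.34, -0.46 and -0.66.

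Among transport and apical membrane genes, Tspan1, a tetraspanin of secretory epithelia, was lower in grafts, at 11.20, 12.01, 11.57, 12.94 and 12.81 against 14.15 to 14.52 (difference -2.16, SE 0.29, adjusted p = 8.69e-05). The potassium channel gene Kcnk1 was lower too, at 9.90 to 11.83 against 11.94 to 12.48 (difference -1.31, SE 0.31, adjusted p = 0.004), but it missed the threshold when all 17 samples shared 1 fit (adjusted p = 0.0601). Prom1, which encodes the apical protrusion protein prominin, ranged from 10.10 in FS008 to 13.43 in FS007 against 11.07 to 11.99 in prostate. The choline transporter gene Slc44a4, the chloride channel family gene Clic5 and Pdzk1ip1 differed by -0.14, 0.22 and 0.48 and did not pass.

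Both mucosal secretion members were below prostate on average. Agr2, a disulfide isomerase of mucus-producing cells, had the largest loss of any member, at 9.63, 11.75, 10.96, 10.89 and 9.22 in grafts against 13.69 to 14.41 in prostate, a 12.2-fold lower level (difference -3.61, SE 0.39, adjusted p = 2.24e-05). Pigr, which carries polymeric immunoglobulin across epithelia, was at 12.33, 14.38, 13.76, 12.48 and 11.07 against 13.35 to 14.44 (difference -1.10, SE 0.50, adjusted p = 0.0815). It passed as lower without FS003 (-1.495) or FS005 (-1.34). The fixed list of 19 secretory and lumen genes, of which Agr2, Pigr and Elf3 were members, had 13 genes that passed as higher and 3 as lower. The higher ones included Ltf (12.59) and Sftpd (8.86), both secreted defence proteins, and the lower ones the prostate secretions Pbsn (-11.26) and Spink3 (-7.09).

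Metabolic members had 2 genes higher and 3 lower of 8. Cyp2f2, a cytochrome P450 known from airway club cells, was at 13.93, 14.54, 12.46, 12.93 and 10.96 in grafts against 9.75 to 10.73 in prostate, a 6.84-fold higher level with a wide spread among grafts (difference 2.77, SE 0.53, adjusted p = 0.00102). Selenbp1 was at 9.60 in FS007 and 10.71 to 10.94 in the others, against 9.28 to 9.91 in prostate. Its difference of 1.01 (SE 0.23, adjusted p = 0.0035) fell under 1 unit in 6 of the 11 fits that left out 1 library, FS002 (0.94), FS003 (0.94), FS005 (0.98), FS008 (0.92), FS012 (0.95) and FS013 (0.95). Acss1, a mitochondrial acetyl-CoA synthetase gene, was lower, at 9.66 to 10.76 against 11.45 to 11.93 (difference -1.40, SE 0.19, adjusted p = 0.000115), though not with all 17 samples in 1 fit (adjusted p = 0.188). Prodh (proline dehydrogenase) and the fucosyltransferase gene Fut9 were lower, with differences of -1.58 (SE 0.40, adjusted p = 0.00566) and -1.47 (SE 0.45, adjusted p = 0.0166), and both overlapped with prostate through FS008. Adh1, Car2 and Chdh differed by -0.02, 0.17 and 0.36.

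The antigen-presentation members were above prostate on average. Cd74, the invariant chain of MHC class II, was at 12.83, 12.42, 12.83, 13.53 and 11.75 against 10.31 to 11.36 (difference 1.96, SE 0.28, adjusted p = 0.000146). H2-Aa, a class II chain, was at 10.75, 10.49, 10.89, 11.70 and 9.38 against 9.32 to 10.48 (difference 0.97, SE 0.35, adjusted p = 0.0328), and it passed without FS003 (1.01), FS008 (1.28) or FS013 (1.13). H2-Aa is itself in the immune marker list, of which 4 of 5 genes fitted passed as higher in grafts, and the part of immune cells in the levels of Cd74 and H2-Aa was not tested. Of the members given no role, Sel1l3 was lower with little spread, at 10.45 to 11.02 against 12.93 to 13.57 (difference -2.44, SE 0.14, adjusted p = 4.68e-07). AA986860 was higher, at 9.54 to 11.5005 against 9.03 to 9.44 (difference 1.12, SE 0.30, adjusted p = 0.00851), but fell under 1 unit without FS007 (0.84). Ttc39a, 0610040J01Rik, Bspry and Prr15l differed by -0.44, -0.28, -0.16 and 0.39.

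The grafts differed more among themselves than the prostate samples did. The SD over 5 grafts was larger than the SD over 6 prostate samples for 66 of 70 members, with medians of 0.65 and 0.23. The same held for 13782 of 16353 genes fitted (medians 0.49 and 0.23) and for 3808 of 4622 comparison genes (0.25 and 0.13). FS007 was the highest graft for 44 members, FS003 for 15, FS008 for 10, FS005 for 1 and FS002 for 0, and the lowest graft was FS005 for 22, FS002 for 19 and FS008 for 18. Against the prostate mean, the median member difference was -0.48 in FS002, -0.10 in FS003, -0.41 in FS005, 0.43 in FS007 and 0.01 in FS008. In the same order it was -0.22, -0.21, -0.22, -0.01 and -0.05 over the comparison genes. Over all genes fitted it was 0.12, 0.14, 0.13, 0.05 and 0.04. FS007 and FS008 both lay above the other 3 grafts in 27 members, among them Mal, Pllp and Spint1, and both lay below in 3. The shares of all genes in these orders, or with a given graft highest or lowest, were not counted. These counts therefore cannot be called particular to the members. Without FS007 and FS008 the median difference was -0.33, with 9 members higher and 18 lower.

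**Figure D4:**
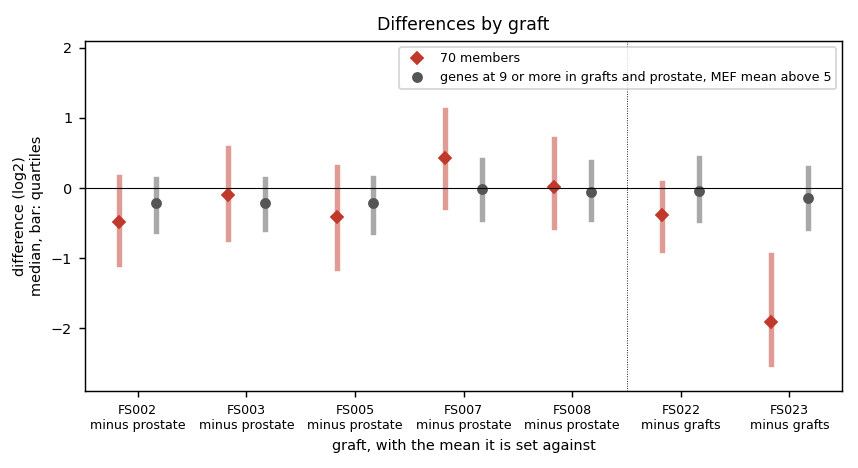
Median difference (points) and quartiles (bars) in log2 units for the 70 members (red) and for genes at 9 or more in all grafts and prostate samples with a MEF mean above 5 (grey), for each iEpt+NAF graft against the prostate mean and for each iEpt only graft against the mean of the iEpt+NAF grafts. The members' medians run from -0.48 in FS002 to 0.43 in FS007, and are -0.39 in FS022 and -1.91 in FS023.

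Kidney tubule is an epithelium too and is known to express many of these genes, so the nephron values are given beside the members'. The tubule gene Slc34a1 was at 13.24, 7.19, 14.72, 10.44 and 15.21 in the 5 grafts and at most 4.32 in prostate, and Kap was at 9.77 in FS003, 12.34 in FS007 and 15.84 or more in the other grafts against at most 6.12. FS003 and FS007 were the lowest grafts for both genes, and both were above every MEF and prostate sample for them. The members' median differences from prostate were -0.48, -0.10, -0.41, 0.43 and 0.01 in FS002, FS003, FS005, FS007 and FS008. Members higher in FS002, FS005 and FS008 than in both FS003 and FS007 numbered 3 of 70 (4.29%), Fut9, Pdzk1ip1 and Prodh, against 9.23% of all genes fitted and 7.33% of the comparison genes. The opposite order held for 15 members (21.4%), with Cdh1, Elf3, Esrp1, Grhl2 and Tjp3 among them, against 8.30% and 10.3%. All members were selected to be at 9 or more in each of these grafts, and the part of kidney tissue in their levels was not tested.

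The iEpt only grafts took no part in the rule. In FS022, 67 of 70 members were at 9 or more, against 28.8% of all 23259 genes in both tables and 93.7% of 4611 comparison genes. In FS023, 33 of 70 were, against 31.9% and 93.5%. The 2 grafts together had 32 members at 9 or more in both, 35 in FS022 only, 1 in FS023 only and 2 in neither. The median member level was 10.4 in FS022 and 8.88 in FS023, and 63 of 70 members were higher in FS022. The median difference FS023 minus FS022 was -1.34 over members, 0.11 over all genes fitted and -0.12 over comparison genes. The FS022 and FS023 columns lay off the scale of the first table by -0.11 and -0.14 (medians over 10188 genes), and taking out these offsets gave 67 and 36. With a floor of 8, the counts were 69 and 61. Each graft is 1 library of lower depth, where a value of 9 is about 214 and 306 reads, and the labels do not separate the kinds of graft.

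**Figure D5:**
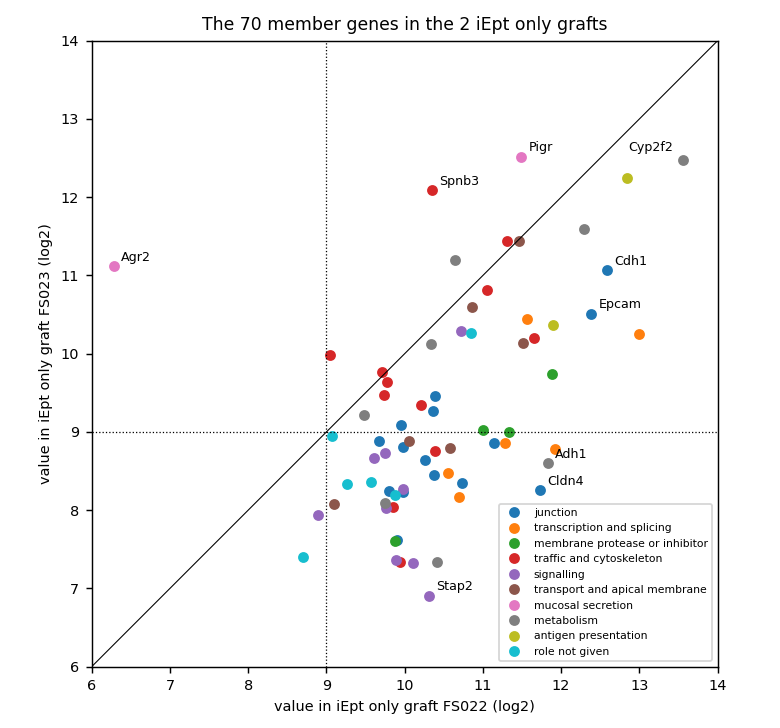
Deposited log2 value of each member in iEpt only graft FS022 (horizontal axis) and FS023 (vertical axis), coloured by role, with dotted lines at 9 and a solid line of equal values. Most points lie under the solid line, 63 of 70, and the exceptions include Agr2, Spnb3 and Pigr.

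Against the iEpt+NAF grafts, FS022 lay below the lowest graft in 23 members, within their range in 44 and above it in 3. FS023 lay below it in 54, within it in 15 and above it in 1, the spectrin gene Spnb3 (12.09 against 9.73 to 11.24). The members were selected to be high in these iEpt+NAF grafts, so lower values elsewhere can follow from the rule. Shares of other genes below the range were not counted. The median difference from the iEpt+NAF mean was -0.39 in FS022 and -1.91 in FS023 over members. Over the comparison genes, which met the same floor, it was -0.04 and -0.14. Every one of the 70 members was above its highest MEF value in both FS022 and FS023. The rule chose members for low MEF values, none above 6.80, so the MEF side of this comparison was set by the selection. By role, all 15 junction genes were at 9 or more in FS022 and 5 in FS023, among them Cdh1 (12.59 and 11.07) and Epcam (12.38 and 10.51). Cldn4 was at 11.73 and 8.25, Cldn3 at 10.73 and 8.34, and Cldn7 at 10.38 and 8.45. Signalling genes were at 9 or more in 8 of 9 in FS022 and in 1 of 9 in FS023, and transcription and splicing genes in 6 and 2 of 6, with Elf3 at 11.57 and 10.45. Traffic and cytoskeleton genes differed less, with 12 and 9 of 12 and a median difference of -0.25.

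Large differences between the 2 grafts were seen in Stap2 (10.30 in FS022 and 6.90 in FS023), Cldn4 and Adh1 (11.83 and 8.60). Agr2 went the other way, at 6.28 in FS022 and 11.12 in FS023. Spnb3 (10.35 and 12.09), Pigr (11.49 and 12.52) and Pllp (9.04 and 9.98) were also higher in FS023. The members under 9 in FS022 were Agr2, Bspry (8.70) and Arhgef16 (8.89), and the latter pair was under 9 in FS023 as well (7.40 and 7.94). Cyp2f2 (13.55 and 12.48), Cd74 (12.84 and 12.25) and Car2 (12.29 and 11.59) were past the floor in both. The nephron sum was 15.5 in FS022 and 12.1 in FS023, the squamous sum 8.99 and 11.7, the intestinal or mucous sum 9.37 and 12.7, and the muscle sum 18.002 and 13.201. The part of these tissues in the difference between the 2 grafts was not tested.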

How the data were processed

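RNA-seq values of 17 samples (5 iEpt+NAF grafts, 6 prostate, 6 MEF) and of 2 further grafts were used. The authors normalized the read counts of each mouse gene with DESeq, and the deposited log2 values are in 2 tables of 23284 genes that share 23259 names. The submitters' processing notes name bcl2fastq 1.8.4, TopHat, Cufflinks and mm9, and the step to the log2 scale is not given in the sources used here. Values from 11.5 to 15 corresponded to whole reads (100% within 0.05 reads) and gave the depth, while values from 9 to 11 carried added scatter, so no count test was run. Depths are single estimates per sample without an interval, and 3 reads were taken as the smallest detectable level. The design allowed for linear values or log2 values, and the log2 values were tested as deposited.

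The test of grafts against prostate used limma 3.58.1 (lmFit, then eBayes with trend, R 4.3.3) on the 16353 genes whose linear mean was 10 or more, and gave Benjamini-Hochberg adjusted p-values. On simulated data for this comparison (15812 genes), 125 of 200 changed genes were recovered with 9 false calls. The simulation gave each gene the same spread in both groups, whereas the grafts spread more than the prostate samples. Its counts therefore do not describe calls under unequal spread. The labels do not say that samples of a group came from separate animals or cultures, so p-values measure the spread between these samples. The members, gene lists and marker lists were chosen with earlier results of these data known. The genes named by rule were the extremes of each list, of the graft-prostate difference, of the 2 iEpt only grafts, of the thresholds and of the spread over grafts. The other members, and the E-box windows, were named by role or match count after their values were seen. Python 3.11.15, numpy 2.4.6, pandas 2.3.3 and matplotlib 3.10.9 were used. Alternatives changed the rule's limits, scaling, filter, samples and minimum difference. The values of 1 member are not reported here by name, though it is counted.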

Additional observations from a re-analysis of the deposited data

Results flagged for a closer look

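In 2 of 82 sets of values checked, 1 sample stood apart from the others of its group, against about 4.1 expected by chance (about 1 set in 20). Both were prostate samples. Erbb3 was at 10.1522 in FS009 against 10.3401 to 10.3749 in the other 5. Myo5b was at 10.8143 in FS012 against 10.1077 to 10.3611 in the others.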

How the results depend on the processing

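The number of members depended on the rule: it was 143 with a floor of 8, 27 with a floor of 10, 45 with every MEF sample at or below 5, 51 and 90 with a MEF mean at or below 4 and 6, and 70 to 82 when 1 graft was left out of the rule. The count of members at the floor in FS023 rose from 33 to 61 with a floor of 8. Between grafts and prostate, leaving out each graft or prostate library gave 8 to 11 members higher, 13 to 15 lower and a median difference of -0.272 to -0.0192. Quantile normalization moved the median of all genes fitted from 0.11 to -0.1442 and the shares of all genes called to 15.8% higher and 20.4% lower, with 13 members higher and 14 lower. Without a minimum difference, 15 were higher and 18 lower. A fit of all 17 samples gave 9 and 12, no filter 9 and 14, and the log2 of the linear values plus 1 gave 10 and 14. Leaving out FS007 and FS008, an alternative chosen after seeing the data like the use of FS019 and FS020 alone for MEFs, gave 9 and 18. Of the 24 members that passed, 0 changed sign in the 16 alternatives run on them, while 13 of the 46 that did not pass changed sign in at least 1. Of the same 24, 16 passed in all 16. No paired analysis was possible because the labels give no replicate numbers. Depth limits FS022 and FS023 most, with 6629665 and 9662060 estimated reads.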
